A study of Mus musculus with 12 samples.

Results

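Transcript levels of 9 chemokine receptor genes (Ccr1, Ccr2, Ccr7, Ccr8, Cxcr2, Cxcr3, Cxcr4, Cxcr6 and Cx3cr1) were followed across the immune cells of mouse breast tumors. The genes were chosen by name from the 31053 genes of the matrices, and all 9 were present. Single-cell transcripts were measured in tumors of PyMT mice, in which the MMTV promoter drives the PyMT oncogene in mammary epithelial cells and tumors arise spontaneously. There were 12 samples, 3 from PyMT-PAR2WT and 3 from PyMT-PAR2G37I mice in each of 2 bead selections, CD11c for macrophages and dendritic cells (DCs) from late-stage tumors and CD4/CD8 for T cells from mid-size tumors. All mice carried the PyMT transgene on a C57BL/6 background and were female, and no further treatment was given. PAR2 G37I is a knock-in form of protease-activated receptor 2 (F2rl1) in every cell of the mouse, made to resist cleavage by coagulation factor Xa. The mice were adult, and their labels carry no age.

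The deposited matrix of each selection pools its 6 samples, and in the files used here no cell is linked to a sample or genotype. Each matrix was therefore treated as 1 sample, genotypes were not compared, and no tests between conditions were made. The barcodes of each matrix run through the alphabet 6 times, and these stretches, called barcode runs and numbered within a matrix, give a description of the spread. No run was tied to a sample. The intervals given are exact 95% intervals that cover counting error only.

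Chemokine receptors are G protein-coupled receptors that steer leukocytes along gradients of small secreted chemokines. Ccr1, Ccr2, Cxcr2 and Cx3cr1 are known from the traffic of monocytes, macrophages and neutrophils, and Ccr7 guides mature DCs and naive T cells to lymph nodes. Cxcr4 keeps hematopoietic cells in the marrow and is found on many leukocytes. Cxcr3 and Cxcr6 bring activated T cells into inflamed tissue and hold them there, and Ccr8 is known from regulatory T cells in tumors.

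By the GENCODE M21 annotation of GRCm38, 5 of the 9 genes lie on chromosome 9. Cxcr6, Ccr1 and Ccr2 lie within 307083 bases of each other (Cxcr6 at chr9:123806475-123811760, Ccr1 at chr9:123962124-123968692 and Ccr2 at chr9:124101950-124113557), and 22234 bases separate Cx3cr1 (chr9:119901616-120069879) from Ccr8 (chr9:120092114-120094906). The other four are Ccr7 (chr11:99144196-99155077), Cxcr2 (chr1:74153989-74161246), Cxcr3 (chrX:101731535-101734269) and Cxcr4 (chr1:128588199-128592293). Cxcr6 lies inside Fyco1, which is read from the opposite strand. The gene model of Cx3cr1, of 168264 bases on the minus strand, overlaps further genes on either strand, so its counts depend on how shared reads were assigned.

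Promoter sequence from RefSeq (GRCm38.p6) was at hand for 8 of the 9 genes, as the 250 bases before the RefSeq transcript start. Below are those of Cxcr3 and Cxcr6, whose levels followed each other most closely across gates, and those of Cxcr2 and Cx3cr1, whose levels were high in neutrophils and in macrophages. They are printed 5′ to 3′ on the strand of the gene, at chrX:101734148-101734397 (minus strand), chr9:123806227-123806476 (plus), chr1:74153744-74153993 (plus) and chr9:120068297-120068546 (minus). The Cx3cr1 window lies inside the GENCODE model of the gene and the Cxcr3 window partly so. Capitals mark matches, on either strand, to TGTGGT (a Runx core), TCACAC (a T-box core), GAGGAA (an Ets core) or TTGCNNAA (a C/EBP core).
Cxcr3: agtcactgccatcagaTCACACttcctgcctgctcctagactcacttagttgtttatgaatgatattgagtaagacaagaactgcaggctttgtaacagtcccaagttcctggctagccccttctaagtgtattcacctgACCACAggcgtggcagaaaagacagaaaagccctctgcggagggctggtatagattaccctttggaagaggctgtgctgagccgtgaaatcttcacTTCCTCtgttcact
Cxcr6: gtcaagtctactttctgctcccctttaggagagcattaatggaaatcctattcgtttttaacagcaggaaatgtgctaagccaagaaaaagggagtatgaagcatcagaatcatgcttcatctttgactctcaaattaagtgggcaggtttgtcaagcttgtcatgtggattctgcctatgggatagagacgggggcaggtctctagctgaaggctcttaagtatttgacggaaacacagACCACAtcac
Cxcr2: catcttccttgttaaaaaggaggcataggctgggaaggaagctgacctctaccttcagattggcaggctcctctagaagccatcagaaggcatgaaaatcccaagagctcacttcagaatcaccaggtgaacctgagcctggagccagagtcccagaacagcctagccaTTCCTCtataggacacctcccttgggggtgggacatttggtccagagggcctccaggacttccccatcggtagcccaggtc
Cx3cr1: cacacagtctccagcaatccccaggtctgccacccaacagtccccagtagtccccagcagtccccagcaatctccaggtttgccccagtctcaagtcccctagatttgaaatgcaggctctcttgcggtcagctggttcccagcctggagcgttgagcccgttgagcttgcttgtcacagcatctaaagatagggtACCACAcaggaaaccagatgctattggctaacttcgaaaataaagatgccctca
The Runx letters occurred in 4 of the 8 promoters (Ccr1, Cxcr3, Cxcr6 and Cx3cr1) and in 14.05% of 32851 mouse promoter windows of the same length. The Ets letters occurred in 3 of the 8 (Ccr1, Cxcr2 and Cxcr3), against 23.3% of windows, and the T-box letters in Cxcr3 alone, against 12.3%. The C/EBP letters occurred in none of the 8, against 9.56% of windows. A match is a description of the letters and not of binding.

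After removal of barcodes with fewer than 200 detected genes, 11639 CD11c-selected cells (123642015 unique molecular identifiers, UMIs, which count captured transcripts) and 22806 CD4/CD8-selected cells (135965765 UMIs) remained. UMIs per run ranged from 13314063 to 24231244 and from 16203038 to 30168668, and the median cell had 7943 and 4361 UMIs. Cells were assigned to gates on UMIs of fixed marker genes, none of them a chemokine receptor, and 70.9% and 74.9% of the cells fell in a gate. Cells with no gate were shallow, with medians of 1802 and 2126 UMIs. Of 35 check markers that did not define the gate they were read in, 33 were higher in it than in the other gates of the matrix. The exceptions were Cd209a in the Ear2 Retnla myeloid gate and Trdv4 in cells with Trdc and a gamma chain gene. In each matrix 76 (CD11c) and 51 (CD4/CD8) barcodes occurred more than once, and 92 occurred in both. A level is the UMIs of a gene per 1000000 UMIs of the gate, and 18 gates of at least 50 cells were ranked, 8 of CD11c-selected and 10 of CD4/CD8-selected cells. Of these, 17 are described here. Sub-gates of macrophages, whose cells are also in the macrophage gate, and the gate of Trdc cells with a gamma chain gene were not ranked.

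The leading gate among those ranked differed between receptors. Ccr1, Cxcr2 and Cxcr4 were highest in neutrophils, Ccr2 in Ear2 Retnla myeloid cells, Ccr7 in migratory DCs, Cx3cr1 in macrophages, Cxcr3 in CD4 T cells, Cxcr6 in terminal CD8 T cells and Ccr8 in regulatory T cells. Levels are relative to all UMIs of a gate, and gates were not ranked by UMIs per cell, an order that can differ. The median cell had 2779 UMIs in neutrophils and 9089 in CD11c-selected macrophages. Epithelial cells were taken as the background in each matrix, and no receptor exceeded 22.3 UMIs per 1000000 there, the value of Cxcr4. Whether the epithelial cells, which include tumor cells, made part of these transcripts themselves was not tested. When the 18 gates were put in order, the intervals of neighbors overlapped in 9 of 17 pairs for Ccr7 and in up to 16 of 17 for Ccr8 and Cxcr2.

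**Figure D1:**
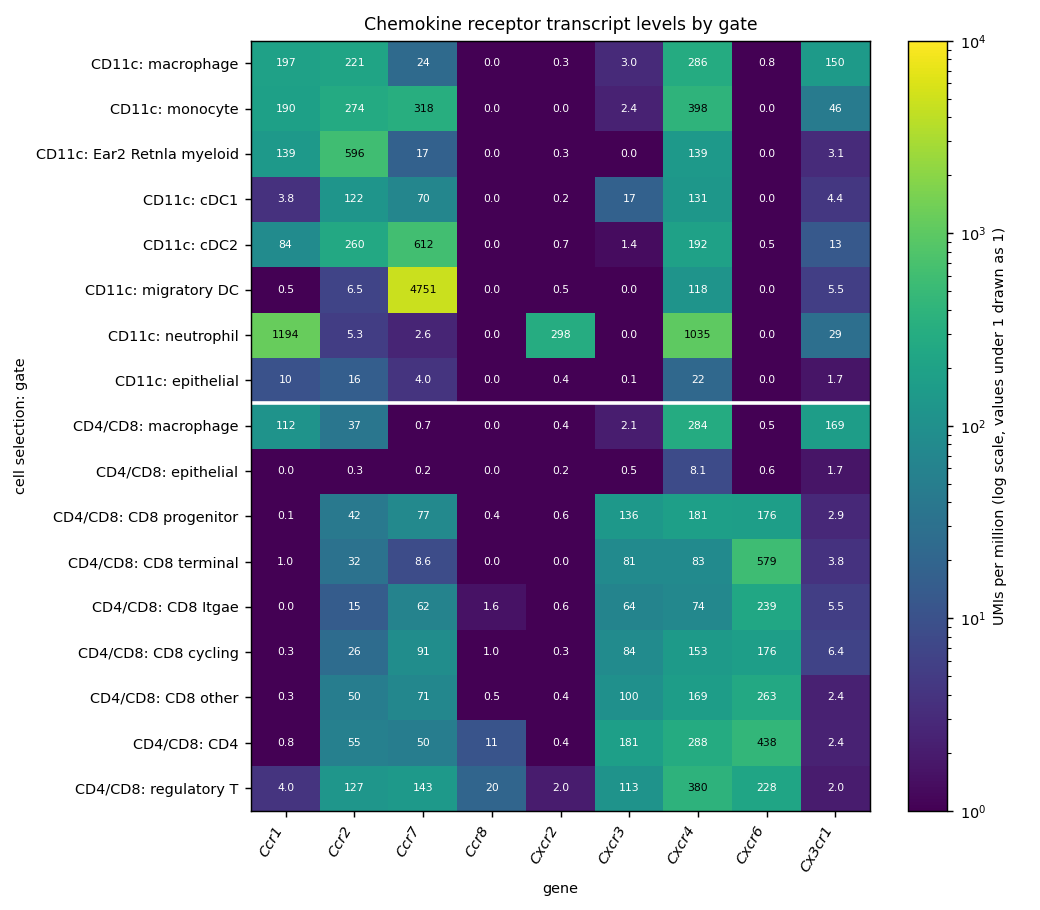
Level of the 9 receptors (columns) in 17 gates (rows, CD11c-selected above the white line and CD4/CD8-selected below), in UMIs per 1000000 on a log color scale, with values under 1 drawn as 1. Ccr7 in migratory DCs, at 4751, is the highest value of the map, and Ccr8 stays under 21 in every gate.

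Ccr1 binds inflammatory chemokines such as Ccl3 and Ccl5 and is carried by neutrophils and macrophages. Its level in neutrophils was 1039 in run 2, 1084 in run 5 and 1233 in run 6, the runs with at least 20 neutrophils. All 3 lay above every run of the next gate, CD11c-selected macrophages, where the runs had a lowest value of 138 and a highest of 242. Over all cells the neutrophil gate (135 cells) stood at 1194 UMIs per 1000000 (1086 to 1309) and the macrophage gate (6199 cells) at 197 (193 to 200), a 6.07-fold difference. Macrophages, the largest gate, held 74.7% of the Ccr1 UMIs of their matrix, and neutrophils 2.43%. The interval of monocytes (190) held the macrophage level, and Ear2 Retnla myeloid cells followed at 139. Among DCs Ccr1 was highest in type 2 conventional DCs (cDC2) at 83.8, where the 6 runs spanned 65.4 to 104. It stood at 3.76 in type 1 conventional DCs (cDC1) and at 0.546, from 1 UMI, in migratory DCs, under the 10.2 of epithelial cells of the same matrix.

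Within macrophages Ccr1 differed between the sub-gates. It was 294 in cells with Il10, an anti-inflammatory cytokine, 235 in cells with Thbs1 and Vegfa, 184 in cells with Lyve1 and Cd209f or Cd209g, and 99.3 in cells with Gpnmb, Trem2 and Spp1. The runs of the Il10 cells (lowest 212, highest 329) and those of the Gpnmb cells (61.0 to 135 in 4 runs) did not overlap. In CD4/CD8-selected cells the order of the Il10, Thbs1 Vegfa and Gpnmb sub-gates was the same, at 315, 130 and 70.4. No T cell gate exceeded 4.04, a value that rests on 2 UMIs.

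Ccr2, the receptor for Ccl2 through which classical monocytes leave the marrow, was highest in myeloid cells with Ear2, Retnla, Lyz1, Aldh1a2 and Cebpe. There the 6 runs had a lowest value of 461, a median of 627 and a highest of 743, and the gate stood at 596 (576 to 616). The runs lay above the 2 runs of monocytes, the next gate, with at least 20 cells, at 265 (run 2) and 152 (run 5). Monocytes stood at 274 (239 to 312) over all cells, above both of these runs. Runs with fewer monocytes were not compared, and without run 3, with 11 monocytes, the level was 239. A UMI of Ccr2 was found in 97.1% of the 276 Ear2 Retnla cells and, after thinning each cell to 2000 UMIs, in 62.6% (56.6% to 68.4%). Epithelial cells of the matrix gave 1.14% on the same scale.

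Monocytes, cDC2 (260) and macrophages (221) were close in Ccr2, and their runs overlapped. Macrophages of run 1 were the highest, at 404, and those of run 5 the lowest, at 152. The macrophage sub-gates differed more than these cell types did. Ccr2 was 374 in Il10 cells, 302 in Thbs1 Vegfa cells and 196 in Lyve1 Cd209f cells but 35.2 in Gpnmb Trem2 Spp1 cells, where the highest of 4 runs was 47.3 and the lowest run of Il10 cells was 245. cDC1 had 122 and migratory DCs 6.55, under the 15.5 of epithelial cells. Neutrophils had 2 UMIs of Ccr2.

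T cells also had Ccr2. Regulatory T cells stood at 127 (97.8 to 163), with 110 and 182 in the 2 runs of at least 20 cells. The CD8 gates described here lay between 14.8 (Itgae cells) and 49.7, and CD4 T cells were at 55.3. Epithelial cells of the matrix held 2 UMIs, or 0.302 per 1000000.

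Cx3cr1, the receptor for fractalkine and a marker of tissue macrophages, was highest in the macrophage gates. CD11c-selected macrophages stood at 150.0 (147 to 153), with a lowest run of 126, a median of 146 and a highest of 177. Macrophages that came through the CD4/CD8 selection stood at 169 (163 to 176), with runs from 106 to 200, so that the runs of the 2 selections overlapped. Macrophages held 91.7% and 77.8% of the Cx3cr1 UMIs of their matrices. Monocytes had 46.3 (32.7 to 63.5), and the 2 runs with enough monocytes differed, at 4.82 and 67.3. The Gpnmb Trem2 Spp1 cells, low in Ccr1 and Ccr2, were not low in Cx3cr1, at 155 in CD11c-selected and 203 in CD4/CD8-selected cells. Lyve1 Cd209f cells had 83.5, from 53 cells. No CD8 gate exceeded 6.36.

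Cxcr2, the receptor by which neutrophils follow Cxcl1 and Cxcl2, was high in neutrophils. The neutrophil gate stood at 298 (245 to 358), with 319, 251 and 279 in runs 2, 5 and 6. No other ranked gate exceeded 2.02, from 1 UMI, and epithelial cells had 0.382. Neutrophils made up 135 of 11639 CD11c-selected cells and held 57.1% of the Cxcr2 UMIs of the matrix. Of 104 neutrophils with at least 2000 UMIs, 31.7% (22.9% to 41.6%) had a UMI after thinning. The neutrophils were shallow, at a median of 2779 UMIs, and 69 of the 135 came from run 6.

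**Figure D2:**
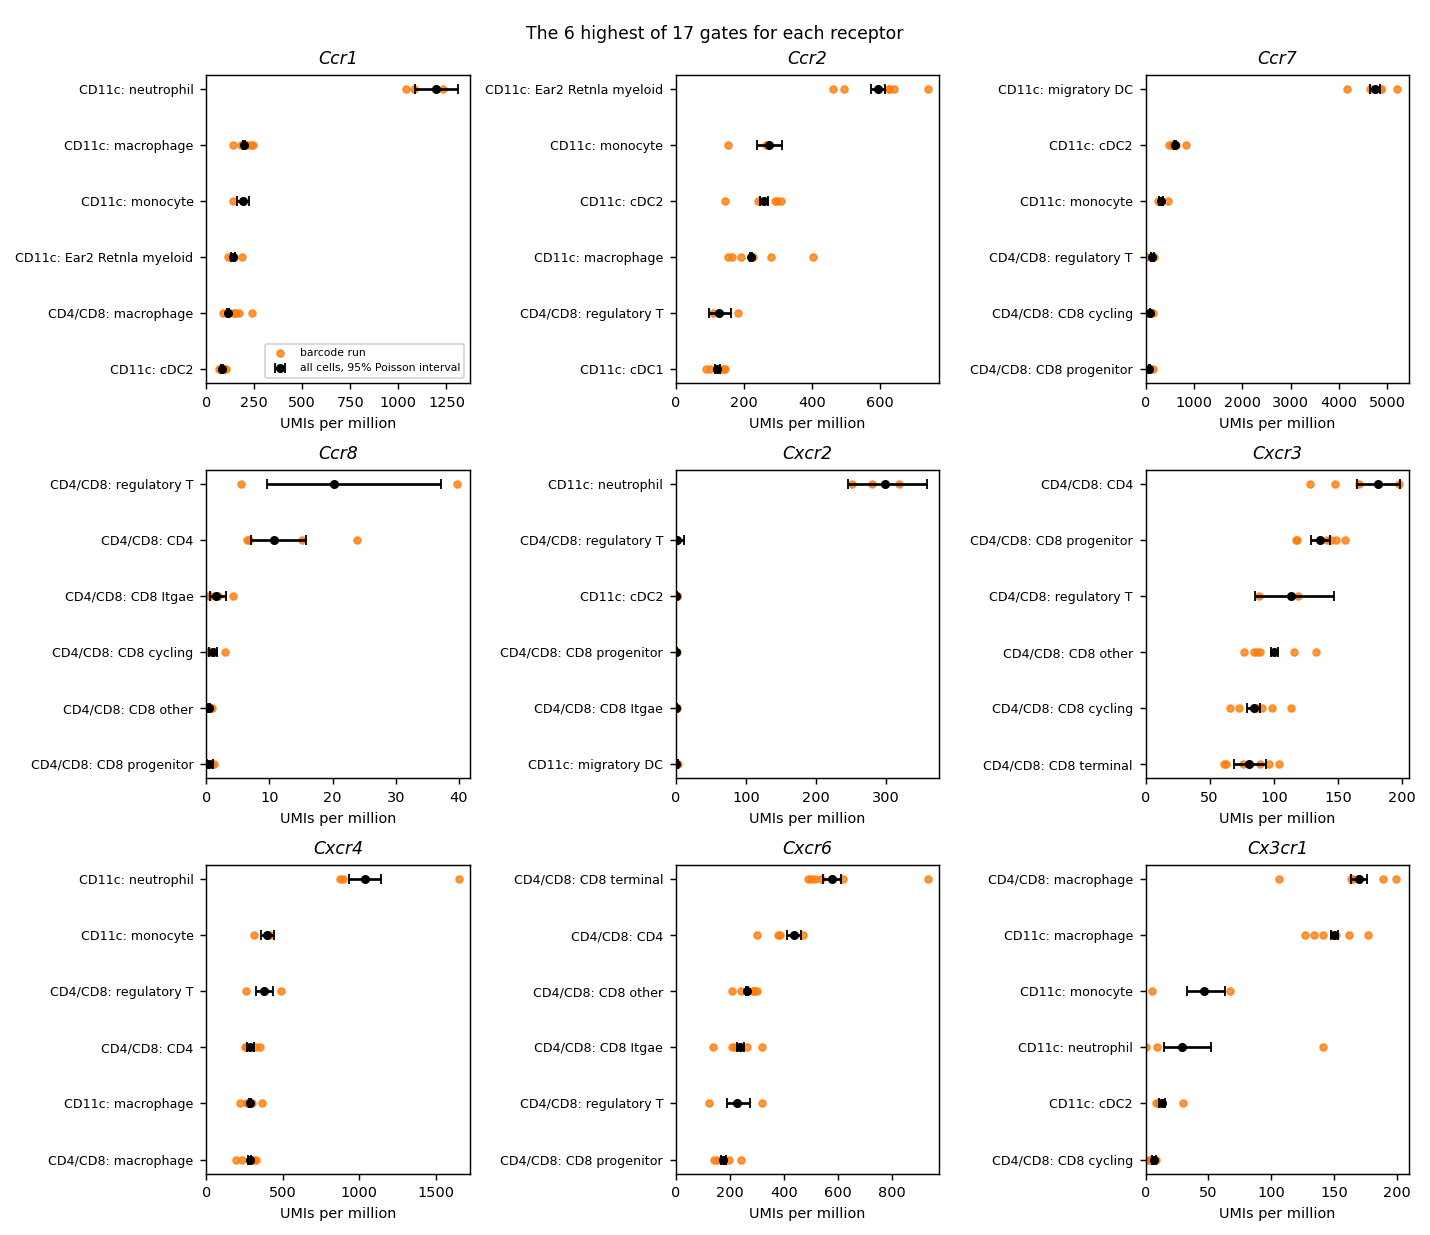
Levels of each receptor in the 6 highest of 17 gates, in UMIs per 1000000, for all cells (black, with exact 95% Poisson intervals) and for each barcode run with at least 20 cells of the gate (orange). Of the runs drawn, those of the highest and next gate do not overlap for Ccr1, Ccr2, Ccr7, Cxcr2, Cxcr4 and Cxcr6. They overlap for Ccr8, Cxcr3 and Cx3cr1.

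Ccr7 follows Ccl19 and Ccl21 toward lymph nodes. Migratory DCs, gated on Fscn1, Cacnb3, Nudt17, Tmem150c and Slco5a1, had 4174, 4877, 4650, 4862 and 5191 UMIs per 1000000 in runs 1, 2, 3, 5 and 6. These values lay above all runs of any other gate. The gate stood at 4751 (4652 to 4852), and 95.2% (90.7% to 97.9%) of thinned cells had a UMI. The 171 migratory DCs held 38.2% of the Ccr7 UMIs of the matrix, although they were 1.47% of its cells.

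cDC2 were next in Ccr7, at 612 (595 to 628) and between 483 and 829 over 6 runs. Without the 6 cDC2 that had 2 or more migratory DC markers, the level was 578. cDC1, in contrast, stood at 69.6. Monocytes had 318 (280 to 359), from only 16 of 82 cells (19.5%) with a UMI of Ccr7. Of these UMIs, 80.8% came from the 47 cells that also had a UMI of a cDC2 or migratory DC marker. The 35 monocytes with none of these 10 markers stood at 168. The same was seen in macrophages, where Ccr7 was 24.2 in all cells, 45.6 in the 2261 cells with such a marker and 7.68 in the 3938 without. Whether these are mixed droplets was not tested.

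Among T cells, regulatory T cells had a Ccr7 level of 143 (112 to 181), with 38.7 and 176 in runs 1 and 4, and cycling CD8 T cells had 91.1. Progenitor CD8 T cells (Pdcd1 and Tcf7 without Havcr2) had 76.6 and terminal CD8 T cells (Pdcd1 and Havcr2 without Tcf7) 8.56. Over all 15085 CD8 T cells Ccr7 ranged from 30.8 to 178 over the runs, a wider range than that of Cxcr6 (189 to 276) or Cxcr3 (75.4 to 131). The cells of a CD8 gate not reported here are among them.

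Cxcr4, the receptor for Cxcl12, was the most widely found receptor, at 74.2 UMIs per 1000000 or more in every ranked gate other than the epithelial ones (22.3 and 8.14). Neutrophils stood highest at 1035 (936 to 1143), with 874 in run 2, 1649 in run 5 and 894 in run 6. These values lay above those of the next gate in its runs of at least 20 cells. Run 5, with 24 neutrophils, was the high one, and the level without it was 912. Monocytes (398, with 314 and 418 in runs 2 and 5) and regulatory T cells (380, with 260 and 488 in runs 1 and 4) followed, and their intervals overlapped. CD4 T cells (288) and macrophages of both selections (286 and 284) followed, with overlapping intervals. DCs were lower, at 192 in cDC2, 131 in cDC1 and 118 in migratory DCs. Within CD8 T cells, progenitor cells had 181, terminal cells 82.8 and Itgae cells 74.2. Terminal cells varied widely between runs, from 32.5 to 138, and Cxcr4 over all CD8 T cells ranged from 94.5 to 231.

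Cxcr3, the receptor for Cxcl9 and Cxcl10, was found in T cells and at a low level in cDC1. CD4 T cells stood highest at 181 (165 to 198), with 198, 148, 128 and 166 in runs 1, 4, 5 and 6. Run 1 held 370 of the 573 CD4 T cells, and without it the level was 154. Progenitor CD8 T cells followed at 136 (129 to 144), and their runs, from 117 to 155, overlapped those of CD4 T cells. Terminal CD8 T cells had 80.9 and Itgae cells 63.7. Among myeloid gates cDC1 had 17.2 (14.2 to 20.8), with 8.78 in the lowest of 6 runs, while cDC2 had 1.35, macrophages 2.98 and migratory DCs 0 UMIs. The T cell gene Cd3e had 0 UMIs in cDC1, and Trbc2 stood at 0.941 there, against 0.268 in macrophages. Both are T cell gate markers, and cells with 2 or more such markers were left out of these gates. Their low levels were thus partly set by the gating. The part of T cell RNA in the Cxcr3 level was not tested.

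Cxcr6, whose ligand Cxcl16 is made by macrophages and DCs, was the leading receptor of CD8 T cells that had Pdcd1 and Havcr2. Terminal CD8 T cells stood at 579 (547 to 612), with a lowest run of 489, a median of 528 and a highest of 936. Run 2 was the high one, and without it the level was 535. CD4 T cells were next at 438 (412 to 464), with runs from 302 to 470, below all runs of terminal CD8 T cells. The remaining CD8 T cells that met no narrower gate had 263, Itgae cells 239, progenitor cells 176 and cycling cells 176. Epithelial cells of the matrix had 0.603 and macrophages 0.473.

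Gamma delta T cells were few. Only 10 CD11c-selected and 8 CD4/CD8-selected cells had Trdc without Trac, together with CD3 genes and without Cd4, Cd8b1 or Foxp3. They held 26 and 16 UMIs of Cxcr6 and 8 and 9 of Cxcr4. A wider gate, added after the data were seen, asked for Trdc with a gamma chain gene and let Trac be present. It held 103 cells, 96 of them from run 2, with Cd8a at 789, Trac at 1166, and no UMI of Trdv4. Their Cxcr6 was 689 (626 to 758), with 71.6% of thinned cells positive, above terminal CD8 T cells over all runs (579), the highest ranked gate, and below those of run 2 (936). Cxcr4 was 43.5, Cxcr3 40.3 and Ccr7 12.9 in this gate. With nearly all cells from 1 run, the gate and the run cannot be told apart.

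Ccr8 was rare. Only 140 UMIs were found in CD4/CD8-selected cells, and 0 in every CD11c-selected gate. Where a gate had 0 UMIs, a bound of 3 UMIs was used in place of the exact limit. Among 6199 macrophages that bound is a level of 0.0424. Regulatory T cells had 10 UMIs in 95 cells, a level of 20.2 (9.69 to 37.1), and CD4 T cells had 27 UMIs, a level of 10.8 (7.13 to 15.7). The intervals overlapped. In regulatory T cells run 4 had 39.7 and run 1 had 5.52, and without run 4 the level was 9.41. CD8 gates had at most 1.57.

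The number of receptors found per cell differed between gates. After thinning to 2000 UMIs, neutrophils had a UMI of 1.92 of the 9 receptors on average, monocytes of 1.32, CD4 T cells of 1.26, cDC2 of 1.20, macrophages of 1.17, regulatory T cells of 1.13 and terminal CD8 T cells of 0.940, against 0.0909 and 0.0268 in the epithelial gates. cDC1 had the lowest value of the leukocyte gates, at 0.448.

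In CD11c-selected macrophages, Cx3cr1 was found less often in cells with Ccr2. It was found in 15.2% (13.4% to 17.1%) of thinned cells with a UMI of Ccr2 and in 24.0% (22.7% to 25.3%) of those without, and it was lower with Ccr2 in 6 of 6 runs. In CD4/CD8-selected macrophages the shares were 13.2% (6.23% to 23.6%) and 25.1% (22.1% to 28.3%), with 68 Ccr2-positive cells and overlapping intervals, and in 1 run alone could they be compared. Ccr2 was found in 26.8% of CD11c-selected macrophages with Ccr1 and in 25.2% of those without, with overlapping intervals and a higher share in 4 of 6 runs.

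In CD8 T cells of all gates, including a gate not reported here, Cxcr6 was found less often in cells with Ccr7. Cxcr6 was found in 15.4% (13.4% to 17.5%) of thinned CD8 T cells with Ccr7 and in 35.1% (34.3% to 35.9%) of those without, and it was lower with Ccr7 in 6 of 6 runs. Cxcr3 was found in 13.99% (12.1% to 16.1%) of cells with Ccr7 and 17.4% (16.8% to 18.1%) of those without, lower in 3 runs and higher in 3. Cxcr6 was found in 34.0% of cells with Cxcr3 and 33.3% of those without, with overlapping intervals. In neutrophils, Cxcr4 was found in 63.6% (45.1% to 79.6%) of cells with Cxcr2 and 73.2% (61.4% to 83.1%) of those without, and Ccr1 in 90.9% and 84.5%. These intervals overlapped with 33 Cxcr2-positive cells. In migratory DCs, Cxcr4 was found in 17.8% of 157 cells with Ccr7, and 8 cells lacked it. Of regulatory T cells, 2 had a UMI of Ccr8 after thinning, too few for a comparison.

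**Figure D3:**
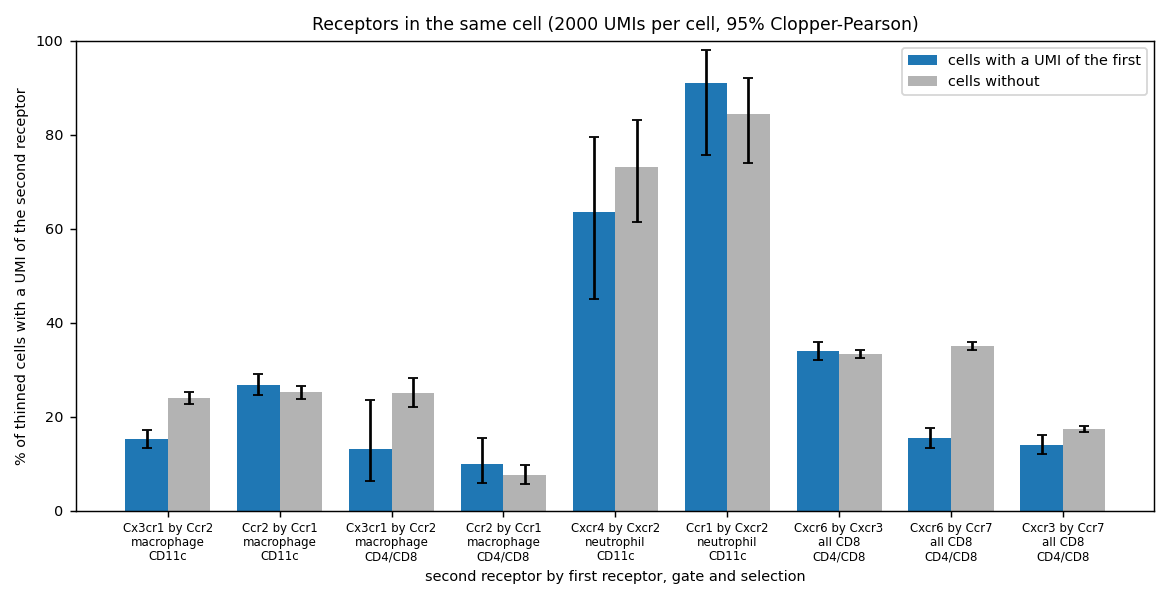
Share of cells, thinned to 2000 UMIs, with a UMI of the second receptor among cells with (blue) and without (gray) a UMI of the first, with exact 95% Clopper-Pearson intervals, for the 9 pairs with at least 20 cells positive for the first and a comparable group without it. Cx3cr1 is at 15.2% with Ccr2 and 24.0% without in CD11c-selected macrophages, and Cxcr6 at 15.4% with Ccr7 and 35.1% without in CD8 T cells.

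For 5 pairs of gates the levels were compared by fold, among genes with at least 20 UMIs over both gates, and the share of all such genes past a 2-fold difference is given as background. CD11c-selected macrophages enter 2 of the pairs. Macrophages of the 2 selections, which came from tumors of different stage, differed in 2 of 8 measured receptors, against 14.8% of all genes (6.51% higher and 8.25% lower). Ccr2 was 37.2 in CD4/CD8-selected and 221 in CD11c-selected macrophages, a 5.93-fold lower level (5.47 to 6.43), and Ccr7 was 0.709 and 24.2, 34.1-fold lower (19.5 to 66.2). Run 3 held 465 of the 876 CD4/CD8-selected macrophages, 128 of the 146 that had Gpnmb, Trem2 and Spp1, and a Ccr2 level of 8.64, against 53.0 to 192 in the other runs. Without it Ccr2 was 99.1, or 2.23-fold lower, and Ccr7 was 1.495, or 16.2-fold lower. Stage, selection and run cannot be told apart. Cxcr4 was at 0.995-fold (0.964 to 1.03) and Cx3cr1 at 1.13-fold (1.08 to 1.18). Cxcr2 (0.413 and 0.325), Cxcr3 (2.07 and 2.98) and Cxcr6 (0.473 and 0.805) were near background in both, and each passed 2-fold when 1 CD4/CD8 run was left out (2.30-fold higher without run 3, 2.06-fold lower without run 2 and 2.57-fold lower without run 4).

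Monocytes differed from CD11c-selected macrophages in 2 of 8 measured receptors, against 19% of all genes (9.85% higher and 9.16% lower). Ccr7 was 13.1-fold higher (11.5 to 15.0), with levels of 168 and 7.68 in the cells without DC markers and of 403 and 45.6 in those with them. The monocyte level rests on 16 cells with a UMI. Cx3cr1 was 3.24-fold lower (2.36 to 4.58). Ccr1 was at 0.966-fold (0.819 to 1.13) and Ccr2 at 1.24-fold (1.08 to 1.42).

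Migratory DCs differed from cDC2 in 4 of 5 measured receptors, against 34.5% of all genes (13.8% higher and 20.7% lower). Ccr7 was 7.77-fold higher (7.51 to 8.04). Ccr2 was 39.6-fold lower (22.6 to 76.8), Cx3cr1 was 2.41-fold lower (1.27 to 5.16), and Ccr1 had 1 UMI against 745 in cDC2, a ratio of 0.00651 (0.000165 to 0.0364). The fold of Cx3cr1 was 10.3-fold lower without run 5 and 1.89-fold lower without run 4, and it rests on 10 UMIs. Cxcr4 was 1.63-fold lower (1.42 to 1.89).

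Regulatory T cells differed from CD4 T cells in 2 of 6 measured receptors, against 16.9% of all genes (9.25% higher and 7.7% lower). Ccr7 was 2.84-fold higher (2.09 to 3.83) and Ccr2 2.30-fold higher (1.68 to 3.12), and without run 4 the latter was 1.69-fold. In run 1 Ccr7 was 38.7 in regulatory and 22.6 in CD4 T cells, and in run 4 it was 176 and 98.6. Within each of these runs the difference was less than 2-fold. Run 1, the lower in Ccr7, held 36 of the 95 regulatory T cells and 370 of the 573 CD4 T cells. Cxcr6 was 1.92-fold lower (1.58 to 2.35), and 2.54-fold lower without run 4. Ccr8 was 1.87-fold higher, with an interval that held 1 (0.807 to 3.98).

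Terminal CD8 T cells differed from progenitor CD8 T cells in 3 of 6 measured receptors, against 7.45% of all genes (3.59% higher and 3.86% lower). Cxcr6 was 3.28-fold higher (3.05 to 3.54), and between 3.15 and 3.38-fold when each run was left out. Ccr7 was 8.95-fold lower (5.62 to 15.2) and Cxcr4 2.18-fold lower (1.87 to 2.57), the latter 1.91-fold without run 3. Cxcr3 was 1.68-fold lower (1.43 to 1.99). The gates were set on Pdcd1, Tcf7 and Havcr2 and not on these receptors.

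**Figure D4:**
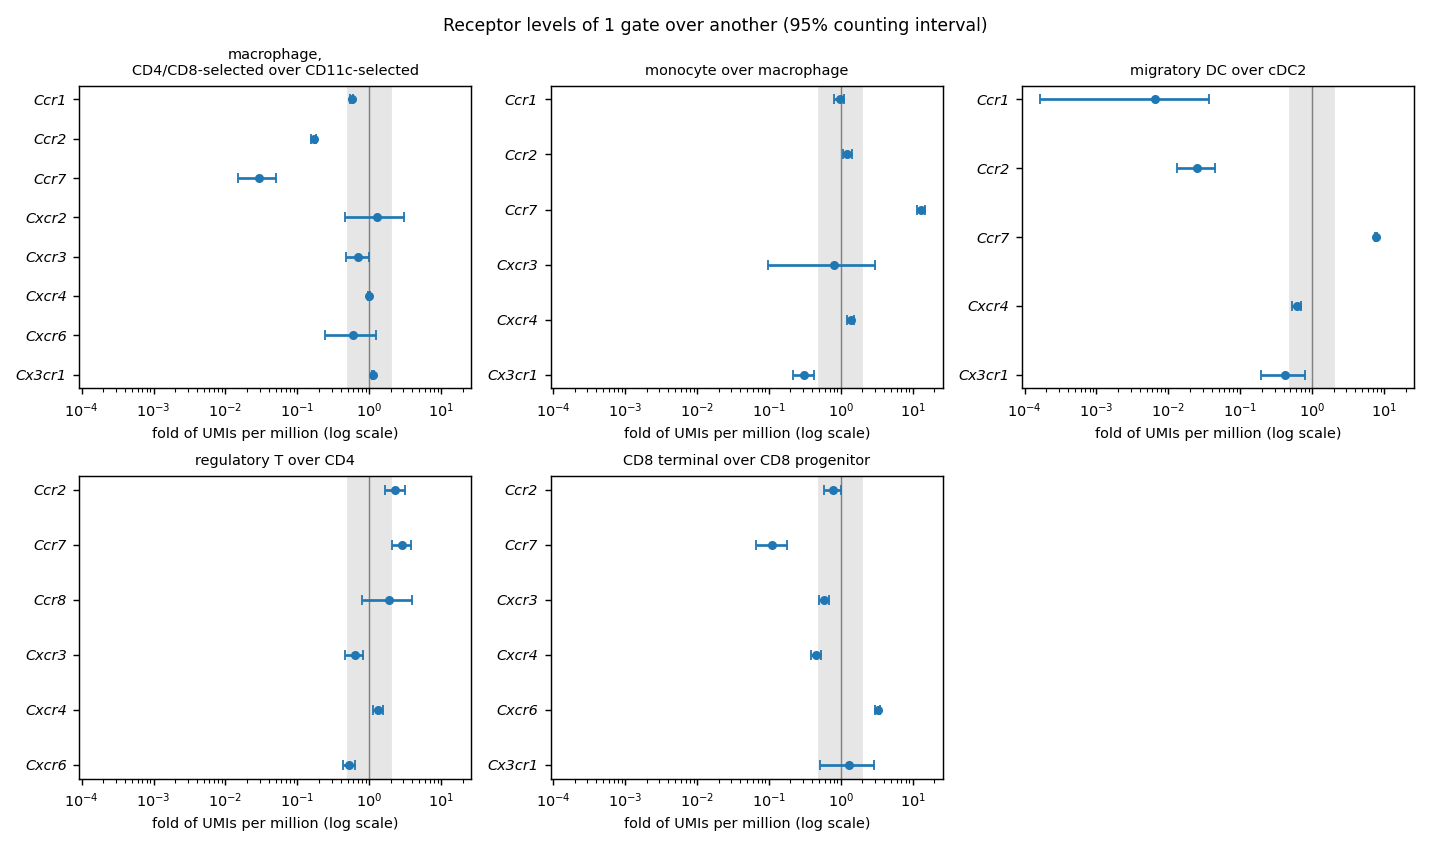
Fold of the receptor level of 1 gate over another (log axis) for 5 pairs of gates, with the exact 95% interval for counting error. Gray marks folds under 2 in either direction. Over all cells of the gates, Ccr7 lies outside it in 5 of 5 pairs, and Cxcr6 is 3.28-fold higher in terminal than in progenitor CD8 T cells.

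Among other chemokine receptors, Ccrl2, Ccr9 and Xcr1 each had more than 2000 UMIs over both matrices. Ccrl2, an atypical receptor that presents chemerin, was highest in neutrophils at 1304 (1192 to 1424), followed by CD4/CD8-selected macrophages at 332. Ccr9 was highest in cDC2 at 30.7 (27.2 to 34.6) and CD4 T cells at 23.2 (17.6 to 30.03), with overlapping intervals. Xcr1, the receptor that marks cDC1, stood at 238 there and at 16.1 in cDC2. Ccr4 and Ccr6 were highest in regulatory T cells, at 40.4 (24.7 to 62.4) and 56.6 (37.6 to 81.7), and Cxcr5 in migratory DCs at 33.3. Cxcr1, the other neutrophil receptor for Cxc chemokines, had 8 UMIs in all. In the neutrophil gate it had 1 UMI, or 2.63 per 1000000, against 298 of Cxcr2. Ackr2 and Ackr4 had 48 and 12 UMIs. Ccr3, Ccr4, Ccr6, Ccr10 and Ackr1 had between 57 and 259 UMIs each.

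The ligands of these receptors were read in the same gates. Of 22 ligands listed, 20 were analysed, and the highest gates named here are among the ranked ones. Ccl19 and Ccl21a, the ligands listed for Ccr7, were not among those analysed. Of the ligands named here, the intervals of the highest and the next ranked gate overlapped for Ccl4, Cxcl10 and Cxcl12. For Ccr1, Ccl3 was highest in neutrophils (1336), Ccl4 in macrophages (1060), Ccl5 in terminal CD8 T cells (14436), and Ccl6 and Ccl9 in Ear2 Retnla myeloid cells (3394 and 1971). For Ccr2, Ccl2 was highest in monocytes (866) and Ccl7 in macrophages (864), while Ccl12 led in CD4/CD8-selected macrophages (303). For Cxcr2, Cxcl2 was highest in the neutrophils themselves (5986) and Cxcl1 in epithelial cells (821). For Cxcr3, Cxcl9 stood highest in monocytes (244) and cDC1 (87.8), and Cxcl10 in monocytes (251) and macrophages (219). Cxcl16, for Cxcr6, was at 894 in migratory DCs and 736 in macrophages. Cx3cl1, for Cx3cr1, was highest in epithelial cells, at 68.0 in CD11c-selected and 55.8 in CD4/CD8-selected cells. Cxcl12, for Cxcr4, reached 51.1 in monocytes and is known mainly from stromal cells, for which there was no gate. For Ccr8, Ccl8 was highest in macrophages at 1804, and Ccl1 in CD4 T cells at 30.8. Macrophage sub-gates exceeded the ranked gates for several of these ligands. CD11c-selected Il10 cells had 1797 of Ccl2, 2390 of Ccl7, 2232 of Ccl4, 4118 of Ccl8, 6198 of Cxcl2 and 895 of Cxcl1. The 53 Lyve1 Cd209f cells had 2757 of Ccl2, 2860 of Ccl7, 11620 of Ccl8, 581 of Ccl12 and 3710 of Ccl6.

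**Figure D5:**
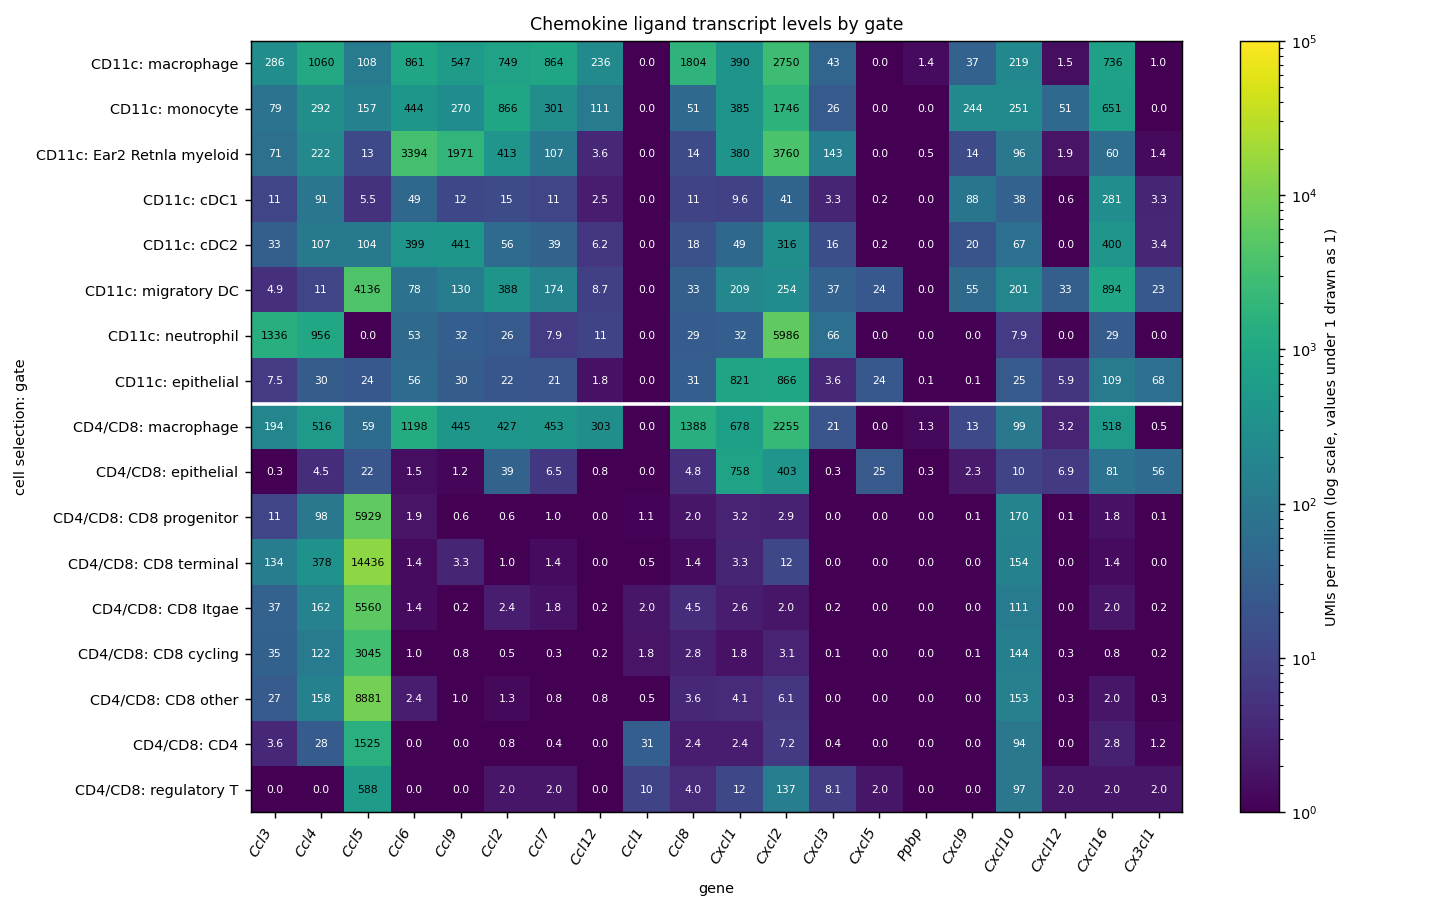
Level of 20 chemokine ligands (columns) in 17 gates (rows), in UMIs per 1000000 on a log color scale, with values under 1 drawn as 1. Of the gates drawn, Ccl5 is highest in terminal CD8 T cells at 14436, Cxcl2 in neutrophils at 5986, and Cx3cl1 in the epithelial gates at 68.0 and 55.8.

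Over the 18 gates, the levels of Cxcr3 and Cxcr6 were the most alike among the 9 receptors, with a Pearson r of 0.94 on the log2 scale, followed by Ccr1 and Cx3cr1 at 0.73. The most opposed were Ccr1 and Cxcr6 at -0.66. These correlations describe gates that share libraries and depth. Cxcr3 and Cxcr6 were both higher in every T cell gate than in any other ranked gate. Among T cells their order differed. Terminal CD8 T cells had 579 of Cxcr6 and 80.9 of Cxcr3, and progenitor CD8 T cells had 176 and 136. Among 11353 genes with at least 500 UMIs that were not gate markers, the gene most like Cxcr6 was Ikzf3 (r = 0.995), a lymphoid transcription factor, followed by Ubash3a, Cd28, Gimap1 and Pglyrp2 (0.99 each). S1pr4, Nefh, Cers4, Tbx21 and Peli1 were most like Cxcr3 (each 0.96), Tbx21 encoding the transcription factor T-bet. Cd300ld (0.97), Igsf6, Clec4e, Cyp4f18 and Gm5150 were most like Ccr1, and Cd93 (0.96), Ccl12, Creg2, Lair1 and Ntpcr most like Cx3cr1. Foxp1 (0.91), Map3k1, Rrad, Zmiz2 and Tob2 were most like Ccr7. Xylt1 (0.92), Srgn, Arpc3, Gmip and Rgs2 were most like Cxcr4. Tnfrsf25 (0.92), Izumo1r, Trat1, Cd40lg and Bmp7 were most like Ccr8. Diablo (0.92), Zcchc6, Zfp518a, Cwc25 and Gpd1l were most like Cxcr2, and AI504432 (0.87), Dpysl2, Twf2, Vim and Coro7 most like Ccr2. Cxcr2 was high in 1 of the 18 gates and Ccr8 rested on few UMIs.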

How the data were processed

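Single-cell transcripts were measured in 12 samples, and the deposited files hold 2 matrices of unnormalized UMI counts, 1 for each bead selection, which the authors made with Cell Ranger 3.0.2 on mm10 (per the submitters' processing notes). Cells were thawed from frozen stocks before capture. Each matrix was taken as 1 sample, and the planned comparison of genotypes (edgeR on UMIs summed per sample) was not run, since cells could not be mapped to samples in these files. Other processed forms of these data that the study names were not used here. Whether free RNA or doublets were removed before deposit is not given in the sources used here, and no doublet caller was run.

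Barcodes with at least 200 detected genes were kept. A cell entered a gate with UMIs of at least 3 of 5 marker genes, or 2 of 5 for T cells, and cells that met several lineages (18 CD11c-selected and 273 CD4/CD8-selected) or tied (479 and 15) were left out. CD8 T cells needed at least 2 UMIs of Cd8a and Cd8b1. The way in which monocyte markers and T cell markers exclude each other was revised after gate counts and levels had been seen. Levels are UMIs per 1000000 UMIs of a gate with exact Poisson intervals, shares have Clopper-Pearson intervals at own depth or after thinning to 2000 UMIs, and folds have exact conditional binomial intervals. All cover counting error only. Barcode runs were shown where they had at least 20 cells of a gate. Likeness was Pearson's r of log2(level + 1) over 18 gates, and the 5 most like genes were named, beside fixed lists of other receptors and of ligands. Fold calls, the intervals and the likeness ranking were tested on simulated data. Gating, thinning, the split into barcode runs and the finding of receptors together were not. The members, gene lists and tests were chosen with earlier results of these data known. Python 3.11.15, numpy 2.4.6, scipy 1.17.1, pandas 2.3.3 and, for TMM factors only, edgeR 4.0.16 in R 4.3.3 were used. Results of 1 gate of CD8 T cells and of 1 further receptor are not reported here.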

Additional observations from a re-analysis of the deposited data

How the results depend on the processing

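Over 54 values under other settings and 54 with a barcode run left out, the highest gate of each receptor stayed the highest. All of these values were relative to UMIs, so they could not show whether the order holds by UMIs per cell. Of these values, 43 and 45 lay inside the interval of the reported level. Some runs could hardly move a level, as neutrophils had 0 cells in run 4 and 1 in run 1. Regulatory T cells had 2, 4 and 5 cells in runs 2, 3 and 6. TMM scaling gave levels of 995 for Ccr1, 647 for Ccr2, 5175 for Ccr7, 864 for Cxcr4, 523 for Cxcr6 and 203 for Cx3cr1. The mean over cells gave 627 for Ccr2, 4888 for Ccr7 and 162 for Cx3cr1. Ccr7 was 5131 with stricter gates and 5067 without the 5% of cells with most UMIs. With each run left out in turn, levels ranged from 1142 to 1238 for Ccr1, 560 to 635 for Ccr2, 4673 to 4916 for Ccr7, 9.41 to 28.7 for Ccr8, 284 to 322 for Cxcr2, 154 to 191 for Cxcr3, 912 to 1221 for Cxcr4, 535 to 606 for Cxcr6 and 164 to 183 for Cx3cr1. Thinning to 2000 UMIs, which also leaves out shallower cells, lowered the share of positive cells in the highest gate to 62.6% for Ccr2, 2.30% for Ccr8, 31.7% for Cxcr2, 30.2% for Cxcr3, 58.9% for Cxcr6 and 24.2% for Cx3cr1. That of Ccr1 in neutrophils went from 83.7% to 86.5%, with 31 of 135 cells left out. Without a minimum UMI count, regulatory and CD4 T cells differed in 4 receptors in place of 2, the added ones being Ccr1 and Cxcr2 at 1 or 2 UMIs a gate, and terminal and progenitor CD8 T cells in 4 in place of 3, the added one being Ccr1 at 2 and 1 UMIs. Leaving out the cDC2 with migratory DC markers, chosen after seeing the data, is given with the Ccr7 levels. No paired analysis was possible because cells are not linked to samples and no result comes from a test between samples. Depth limits Ccr8 most, at 10 UMIs in its highest gate.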
